A study of Homo sapiens with 8 samples.

Results

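The comparison of 5-fluorouracil (5-FU) with control was made in HT-29, a cell line established from a colorectal adenocarcinoma. Each 5-FU library was set against the control library of its own time, so 4 of the 8 libraries of the series carry the comparison: 5-FU at 24 h and 48 h, and control at 24 h and 48 h, with 1 library each. The other 4 libraries came from the same line exposed to one of 2 extracts, labelled 74 3NP and 76 3P, at the same times. All cells grew in RPMI-1640 with 10% serum. No label gives the dose of 5-FU, and the treatment label reads plant extract for every library, so the groups were taken from the sample titles. Of 60796 genes in the deposited table, 13388 had at least 1 FPKM (fragments per kilobase of gene length, scaled for depth) in at least 2 of the 8 libraries and were tested. Of these, 1602 differed by at least 1.5-fold in the same direction at both times, 857 of them higher and 745 lower with 5-FU.

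5-FU is a pyrimidine analogue. Inside the cell it is turned into a deoxynucleotide that blocks thymidylate synthase, which starves DNA synthesis of thymidylate, and into nucleotides that are built into RNA and DNA in place of uracil and thymine. In RNA it is known to disturb the maturation of ribosomal RNA and the work of the nuclear exosome, the complex that trims and degrades RNA. Stalled replication forks halt cells in S phase, where the E2F transcription factors keep the genes of DNA replication on.

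The reads on genes that the FPKM values imply numbered 23324977 and 18258459 in the 5-FU libraries and 20815214 and 22108476 in the control libraries. With 1 library per treatment and time, limma used log2(FPKM + 1) of all 8 libraries, with terms for treatment and for time, so n was 2 libraries per treatment. Nothing in the labels ties the libraries to separate cultures, so p-values cover no more than how these libraries vary. In this fit the spread of a gene comes from how its differences between treatments vary between 24 h and 48 h. A gene whose 5-FU difference depends on time is therefore less likely to pass, and called genes tend to change alike at both times. Of 11 markers of colon epithelium, 10 were tested, and EPCAM stood at 306 and 350.5 FPKM with 5-FU, against 284 and 284 FPKM in the controls, each pair of values being 24 h and then 48 h here and in what follows. CDX2, the intestinal transcription factor, was low at 1.31 and 1.4995 FPKM with 5-FU, against 1.1004 and 1.29 FPKM in the controls, and CDH17 did not pass the filter. Of 19 fibroblast, leukocyte and endothelial markers only COL1A1, CD14 and LYZ passed. The fibroblast markers summed to 2.33 and 2.11 FPKM with 5-FU and 1.097 and 1.36 FPKM in the controls, the leukocyte markers to 411 and 492 FPKM with 5-FU and 346 and 386 FPKM in the controls, and the endothelial markers to 0.365 and 0.809 FPKM with 5-FU and 0.125 and 0.248 FPKM in the controls. LYZ, a lysozyme gene that gut epithelium also expresses, stood at 409 and 487 FPKM with 5-FU, against 345 and 384 FPKM in the controls, and PTPRC, which marks all leukocytes, did not pass the filter. The mitochondrial share of reads was 4.62% and 5.52% with 5-FU and 2.96% and 3.18% in the controls. The sources used here do not state whether counting used strand, and 68.2% of the tested genes overlap another gene of the table and 55.7% overlap one on the opposite strand, so reads of such pairs cannot be told apart. Overlaps are named below for some genes only. Genes described without a mention can overlap too, among them FAS, CDKN1A, CDK2, BAD, IFITM3, IFIT2, TGFB1 and GLA, all on the opposite strand.

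5-FU changed genes in both directions, and the changes were larger at 48 h. At an adjusted p under 0.05, 336 genes were higher (2.51% of those tested) and 404 were lower (3.02%) with 5-FU. An unadjusted p under 0.05 was reached by 3885 genes. Genes at least 1.5-fold higher at both times on the log2(FPKM + 1) scale made up 6.4% of those tested, and genes at least 1.5-fold lower at both times made up 5.56%. Of the called genes, 334 higher and 400 lower ones were among them. At 24 h alone, 1243 genes were at least 1.5-fold higher and 1184 lower, against 2779 higher and 2717 lower at 48 h. Among genes that went the same way, 79.2% of the higher and 73.4% of the lower differed more at 48 h, with median log2 differences of 0.80 at 24 h and 1.17 at 48 h for the higher and -0.81 and -1.06 for the lower. Only 35 genes were 1.5-fold higher at 24 h and lower at 48 h, and 53 the other way round. Of the 857 higher genes, 153 were under 1 FPKM in both controls and had to pass the filter through treated libraries. The threshold lay between SENP5 (0.59 at 24 h and 0.76 at 48 h, just inside) and IFITM2 (1.04 at 24 h and 0.58 at 48 h, just outside) among the higher genes, and between TRIM5 (-0.66 at 24 h and -0.59 at 48 h, inside) and LPIN2 (-0.58 at 24 h and -1.14 at 48 h, outside) among the lower.

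**Figure D1:**
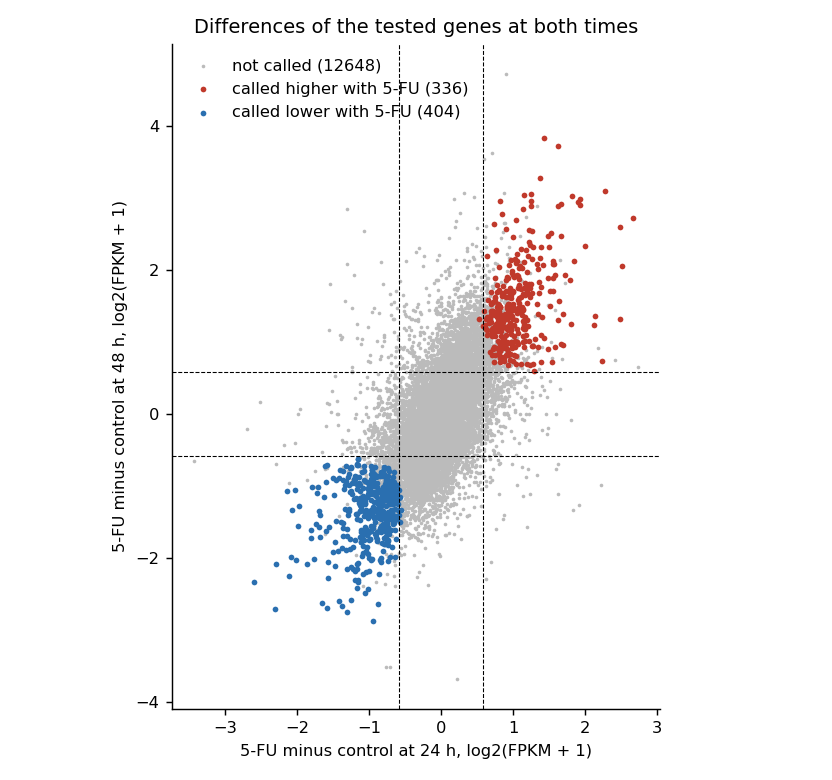
Each point is 1 of 13388 tested genes, with its 5-FU minus control difference in log2(FPKM + 1) at 24 h on the x axis and at 48 h on the y axis; dashed lines mark 1.5-fold. The 336 genes called higher (red) and the 404 called lower (blue) lie where both times go the same way, and the cloud is taller than it is wide.

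The calls rest on few libraries. With limma, 0 genes passed in either direction when the 5-FU 48 h, the control 24 h or the control 48 h library was left out, although 2041, 2352 and 1451 genes still had an unadjusted p under 0.05. Without the 5-FU 24 h library 1364 genes were called higher and 1225 lower. Left-out extract libraries moved the counts as well, to 9 and 11 without either 74 3NP library and to 577 and 532 or 574 and 531 without a 76 3P library, since all libraries share 1 estimate of the spread. No called gene changed its sign under any of these settings. All 336 higher and 404 lower genes already had the same sign at both times, and the fits share most libraries. The kept signs are therefore no separate support. Scaling to total reads put the median of all tested genes at -0.01 at 24 h and -0.15 at 48 h and gave 257 higher and 506 lower calls, with 643 genes 1.5-fold higher and 965 lower at both times. Fewer cells of a kind and less RNA per cell cannot be told apart in these bulk samples.

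The protein-coding genes that were highest at both times included receptors of the cell surface, a spliceosome protein and a cyclin. SNRPA1, a protein of the U2 particle of the spliceosome (GRCh38 chromosome 15, 101281510 to 101295282), had 48.6 and 50.6 FPKM with 5-FU, against 13.3 and 13.3 FPKM in the controls. It rose by 1.83 (SE 0.20, limma adjusted p = 0.0172) on the log2(FPKM + 1) scale, by nearly the same amount at both times. PTAFR, the receptor of platelet-activating factor, had 13.4 and 17.3 FPKM with 5-FU, against 3.89 and 3.19 FPKM in the controls, a rise of 1.84 (SE 0.26, limma adjusted p = 0.0233). PLAUR, the urokinase receptor that focuses proteolysis on the cell surface, had 20.2 and 43.9 FPKM with 5-FU, against 6.37 and 6.89 FPKM in the controls. Its rise was 2.02 (SE 0.32, limma adjusted p = 0.029), and as for PTAFR both 5-FU libraries lay above both controls, which the choice of these genes makes likely. ULBP2, a ligand that natural killer cells read as a sign of stress, had 26.4 and 40.3 FPKM with 5-FU, against 9.49 and 11.2 FPKM in the controls, a rise of 1.57 (SE 0.23, limma adjusted p = 0.0257). CCND3, which encodes cyclin D3, had 41.7 and 63.1 FPKM with 5-FU, against 15.7 and 17.01 FPKM in the controls, a rise of 1.59 (SE 0.24, limma adjusted p = 0.0287). The tubulin gene TUBA4A had 61.4 and 67.999 FPKM with 5-FU, against 20.9 and 23.4 FPKM in the controls, with a rise of 1.51 (SE 0.19, limma adjusted p = 0.0184).

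The remaining 9 of the 15 highest genes were VASN, RHOV, PI3, AQP3, ECM1, TMEM40, PRADC1, APLP1 and OASL. Over all 15, log2 differences lay between 1.51 and 2.67 with limma adjusted p-values between 0.0172 and 0.0394, and 14 of them differed more at 48 h. RHOV stood at 13.1 and 34.8 FPKM with 5-FU, against 2.76 and 3.65 FPKM in the controls, and VASN, a membrane protein that binds TGF-beta, at 8.501 and 20.5 FPKM with 5-FU, against 1.49 and 1.89 FPKM in the controls. TMEM40 was alike at both times, with 5.303 and 6.11 FPKM with 5-FU, against 1.15 and 1.18 FPKM in the controls. APLP1, a relative of the amyloid precursor protein, stood at 14.4 and 31.2 FPKM with 5-FU, against 4.52 and 7.66 FPKM in the controls, but the extract libraries held similar levels, and 5-FU minus the mean of both extracts was 0.03 (SE 0.24, limma adjusted p = 0.942). Of the 15, VASN, TUBA4A, APLP1 and CCND3 overlap a gene on the opposite strand.

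The lowest protein-coding genes included a linker histone and 3 genes of the ribosome and the nucleolus. H1-10 (GRCh38 chromosome 3, 129314771 to 129316286), a linker histone made outside S phase too, had 29.7 and 27.8 FPKM with 5-FU, against 89.98 and 118 FPKM in the controls and fell by 1.81 (SE 0.27, limma adjusted p = 0.0257). Both 5-FU libraries were below both controls. NOP53, a nucleolar factor of ribosome assembly, had 17.3 and 20.4 FPKM with 5-FU, against 63.1 and 69.3 FPKM in the controls and fell by 1.76 (SE 0.22, limma adjusted p = 0.0172). ALOX5, the 5-lipoxygenase of leukotriene synthesis, had 4.65 and 3.503 FPKM with 5-FU, against 14.98 and 15.9 FPKM in the controls and fell by 1.71 (SE 0.23, limma adjusted p = 0.0221). SPG11, which encodes the lysosomal protein spatacsin, had 4.85 and 2.99 FPKM with 5-FU, against 14.7 and 13.97 FPKM in the controls and fell by 1.67 (SE 0.20, limma adjusted p = 0.0172). ZFC3H1, which links nuclear polyadenylated RNA to the exosome, had 2.06 and 1.34 FPKM with 5-FU, against 6.97 and 5.63 FPKM in the controls and fell by 1.44 (SE 0.18, limma adjusted p = 0.0172).

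HPDL, TMEM129, C1RL, RPL3, RPL10A, MGAM2, MFSD3, C6orf120 and LHPP were also among the 15 lowest, whose log2 differences lay between -2.14 and -1.44 with limma adjusted p-values between 0.0133 and 0.0292. TMEM129, which encodes a ubiquitin ligase of the endoplasmic reticulum, had 7.27 and 8.497 FPKM with 5-FU, against 28.98 and 39.1 FPKM in the controls. HPDL had 0.647 and 0.705 FPKM with 5-FU, against 5.63 and 5.92 FPKM in the controls. The differences were similar at both times, -1.86 at 24 h and -2.08 at 48 h for TMEM129 and -2.01 at 24 h and -2.02 at 48 h for HPDL, on the log2 scale. Of the 15 genes, 9 overlap a gene on the opposite strand, among them TMEM129, NOP53, H1-10, ALOX5, SPG11 and ZFC3H1.

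**Figure D2:**
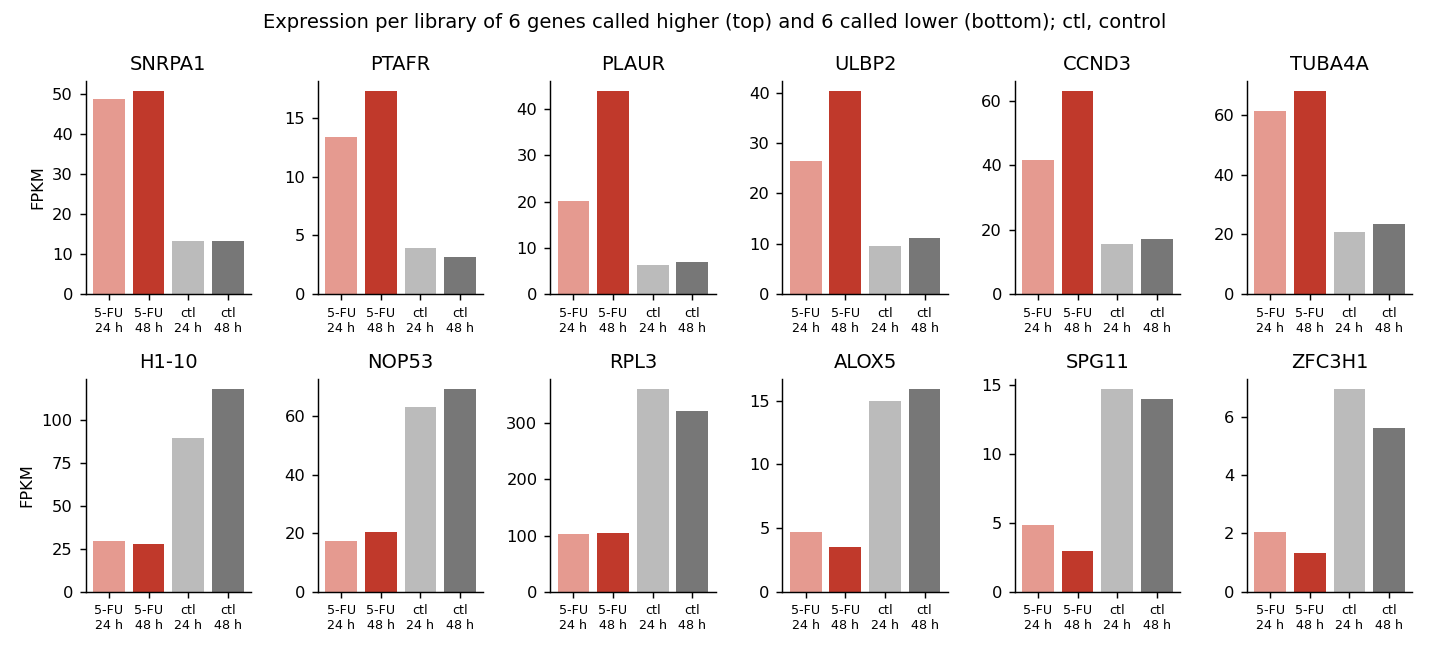
Bars give FPKM in the 5-FU libraries (24 h, 48 h) and in the control libraries (24 h, 48 h) for 6 genes called higher and 6 called lower, each bar 1 library on an axis from 0. In every panel both 5-FU bars lie on one side of both control bars, such as 48.6 and 50.6 against 13.3 and 13.3 FPKM for SNRPA1. The genes were chosen for a change of at least 1.5-fold the same way at both times, which makes this likely.

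Of 18 tested genes of thymidylate and deoxynucleotide synthesis, 2 were called higher, against 2.51% of all tested genes, and 1 was called lower, against 3.02%. TYMS, the thymidylate synthase that 5-FU blocks, overlaps ENOSF1 on the opposite strand and had 22.7 and 28.7 FPKM with 5-FU, against 12.01 and 14.3 FPKM in the controls, a difference of 0.91 (SE 0.29, limma adjusted p = 0.0913). TK1 and RRM2 rose and CAD fell. Of the 18 genes, 14 were higher with 5-FU at 24 h and 9 at 48 h, and the list's median was 0.17 (0.26 at 24 h and 0.03 at 48 h), where the median of all tested genes was 0.003 (0.03 at 24 h and -0.01 at 48 h). With 1 library left out, the list's median was 0.11 without 5-FU at 24 h, 0.11 without control at 24 h and 0.29 without control at 48 h. TK1, the thymidine kinase that salvages thymidine and also activates 5-FU derivatives, had 257 and 472 FPKM with 5-FU, against 131 and 146 FPKM in the controls, a rise of 1.32 (SE 0.29, limma adjusted p = 0.0428). RRM2, the regulated subunit of ribonucleotide reductase, had 87.02 and 59.01 FPKM with 5-FU, against 32.6 and 35.4 FPKM in the controls, a rise of 1.05 (SE 0.24, limma adjusted p = 0.0463). CAD, which carries out the first steps of pyrimidine synthesis, had 15.1 and 8.65 FPKM with 5-FU, against 25.2 and 19.5 FPKM in the controls and fell by 0.89 (SE 0.19, limma adjusted p = 0.0416). Thus TK1 and RRM2 were above and CAD was below both controls in both 5-FU libraries. Of 15 genes of 5-FU activation and breakdown, 9 were tested, and TK1 was the 1 called, against 2.51% of all tested genes called higher. UMPS, which turns 5-FU into its ribonucleotide, had 12.95 and 14.4 FPKM with 5-FU, against 8.08 and 7.44 FPKM in the controls, a difference of 0.74 (SE 0.19, limma adjusted p = 0.06). UPP1, a uridine phosphorylase that also activates the drug, differed between the times, with 12.96 and 26.5 FPKM with 5-FU, against 13.6 and 6.54 FPKM in the controls. DPYD, the main enzyme of 5-FU breakdown, did not pass the filter. In the exosome list 0 of 14 genes passed limma, 4 members reached an unadjusted p under 0.05, and voom called 0; EXOSC10, the nuclear exosome nuclease that 5-FU is known to affect, stood at 10.7 and 11.7 FPKM with 5-FU, against 10.1 and 10.3 FPKM in the controls. Of 14 tested pseudouridine synthase genes, 1 was called lower, against 3.02% of all tested genes, and 0 higher. This was RPUSD4, which fell by 1.08 (SE 0.19, limma adjusted p = 0.0304).

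Among genes that prepare and carry out DNA replication, calls were in 1 direction. The list of G1/S and replication genes had 40 tested members, of which 9 were called higher and 0 lower, against 2.51% of all tested genes called higher, and 18 were at least 1.5-fold higher at both times. The list's median was 0.70 (0.74 at 24 h and 0.52 at 48 h), and 24 of the 40 differed more at 24 h. ORC6, a subunit of the origin recognition complex, had 18.96 and 27.6 FPKM with 5-FU, against 7.69 and 7.65 FPKM in the controls, a rise of 1.46 (SE 0.22, limma adjusted p = 0.0257). CDC25A, the phosphatase that frees CDK2 for S-phase entry, had 13.8 and 16.9 FPKM with 5-FU, against 5.79 and 5.88 FPKM in the controls, a rise of 1.25 (SE 0.20, limma adjusted p = 0.0292). The clamp loader gene RFC4, which overlaps EIF4A2 on the opposite strand, had 30.8 and 36.3 FPKM with 5-FU, against 16.02 and 18.8 FPKM in the controls, a rise of 0.91 (SE 0.19, limma adjusted p = 0.039). For all of these, both 5-FU libraries lay above both controls. E2F8, a repressor among the E2F factors, rose by 0.96 (SE 0.20), and CDK2 itself, which sits in another list, rose by 0.97 (SE 0.23). Not past the test were PCNA, the sliding clamp, at 0.93 (SE 0.29, limma adjusted p = 0.0869), and the E cyclins CCNE1 at 0.83 (SE 0.22, limma adjusted p = 0.0589) and CCNE2 at 0.96 (SE 0.24, limma adjusted p = 0.0524). Some members were lower at 48 h. POLA1, a subunit of the polymerase that starts DNA strands, had 2.85 and 1.38 FPKM with 5-FU, against 3.64 and 3.77 FPKM in the controls. LIG1, the ligase that joins them, had 7.25 and 4.54 FPKM with 5-FU, against 6.56 and 9.24 FPKM in the controls. These 2 were named after their values were seen. In the list of homologous recombination, Fanconi and base repair genes, 2 of 25 were called higher (against 2.51% of all tested genes) and 0 lower, XRCC3 with a rise of 1.02 (SE 0.19) and FANCG with a rise of 0.89 (SE 0.19). Of the 25, 16 had a positive and 9 a negative difference, and the median was 0.16 (0.36 at 24 h and 0.06 at 48 h), with 0.08 without 5-FU at 24 h and 0.33 without 5-FU at 48 h.

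The promoters of these genes were searched for 4 words of the E2F site, TTTCCCGC, TTTGGCGC, TTTCGCGC and TTTGCCGC, on both strands, from 250 bases before to 50 bases after each RefSeq start (GRCh38.p14). Of the 40 replication genes, 34 matched a promoter by symbol, and 22 of these (64.7%) held a word at one of their starts. The same was true of 6.82% of 9018 tested protein-coding genes with a promoter, and 3.33% of all 34961 start windows held one. Of 8 called replication genes with a promoter, 5 (62.5%) held a word: CDC6, MCM2, GINS2, CLSPN and CDC25A. Called members thus held the word no more often than the list as a whole. The share describes how the list is made up, and a link of the word to the 5-FU difference was not tested. Shown because both genes rose are the windows of GINS2, a subunit of the replicative helicase, at chr16:85688955-85689104 and of CDC25A at chr3:48188418-48188567, both on the minus strand, 5′ to 3′ and ending at the base before the start, with the word in capitals.
GINS2: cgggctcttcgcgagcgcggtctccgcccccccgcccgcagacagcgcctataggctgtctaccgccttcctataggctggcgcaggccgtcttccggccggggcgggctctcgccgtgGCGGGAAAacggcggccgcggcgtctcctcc
CDC25A: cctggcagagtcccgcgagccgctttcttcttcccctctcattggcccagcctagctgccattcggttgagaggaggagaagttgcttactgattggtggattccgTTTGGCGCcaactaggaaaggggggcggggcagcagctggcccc
The word begins 31 bases before the start of GINS2 and 44 bases before that of CDC25A, and a match is a match of letters only. GINS2 had 21.01 and 24.6 FPKM with 5-FU, against 10.7 and 13.5 FPKM in the controls, a rise of 0.86 (SE 0.19, limma adjusted p = 0.0429).

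Genes of mitosis and of the replication-dependent histones did not keep to 1 direction over the 2 times. Of 31 G2/M genes, 9 were higher at 24 h and 25 at 48 h, with a median of -0.32 at 24 h and 0.78 at 48 h. CCNB1, the cyclin that drives entry into mitosis, had 53.5 and 92.9 FPKM with 5-FU, against 66.7 and 53.2 FPKM in the controls. FOXM1, the transcription factor of many of these genes, was higher at both times, with 68.3 and 94.8 FPKM with 5-FU, against 41.9 and 38.3 FPKM in the controls, but its difference of 0.99 (SE 0.43, limma adjusted p = 0.168) did not pass. CENPE, a motor protein of the kinetochore, was the 1 of 31 members called, near the 3.02% of all tested genes called lower. It had 1.503 and 1.58 FPKM with 5-FU, against 4.78 and 3.805 FPKM in the controls and a fall of 1.05 (SE 0.20, limma adjusted p = 0.0334). None of the 16 tested histone genes was higher at 24 h, and 9 were at 48 h, with a median of -1.02 at 24 h and 0.32 at 48 h. H2AC6 had 3.92 and 13.3 FPKM with 5-FU, against 21.4 and 18.1 FPKM in the controls. H2BC21, the 1 called of the 16 (against 3.02% of all tested genes called lower), fell by 1.27 (SE 0.26, limma adjusted p = 0.039). Of 41 histone genes on the list, 25 did not pass the filter. Each of these time differences rests on 1 library against 1 library and was not tested.

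**Figure D3:**
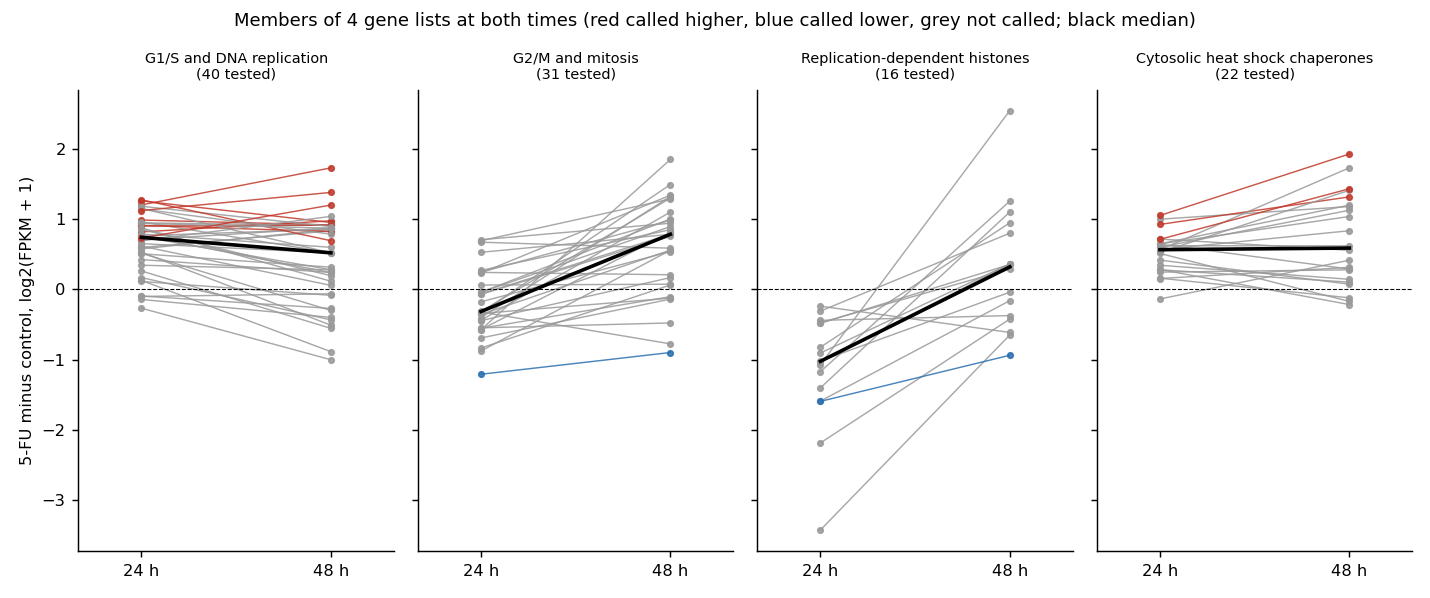
Each line joins a gene's 5-FU minus control difference in log2(FPKM + 1) at 24 h and at 48 h, with the list median in black; red genes were called higher, blue ones lower, grey ones not. Replication genes and heat shock chaperones lie mostly above 0 at both times, while the G2/M median crosses from -0.32 to 0.78 and the histone median from -1.02 to 0.32.

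The lists of cell death genes and of CDK inhibitors, D cyclins and RB held few calls. Of 19 tested death receptor and caspase genes 1 was called higher, of 13 BCL2 family genes 1, and of 15 CDK inhibitor, D cyclin and RB genes 3, against 2.51% of all tested genes, and 0 were called lower in each. The 3 were the D cyclin gene CCND3, the CDK inhibitor gene CDKN1A and the kinase gene CDK2, so they are not all genes of arrest. The medians were 0.32 (0.15 at 24 h and 0.41 at 48 h) for death receptors and caspases, with 8 of 19 below 0. They were 0.21 (0.14 at 24 h and 0.38 at 48 h) for the BCL2 family, with 3 of 13 below 0, and -0.12 (0.16 at 24 h and -0.10 at 48 h) for the CDK inhibitor list, with 8 of 15 below 0. Left-out libraries moved these medians, the first to 0.19 without 5-FU at 48 h and 0.15 without control at 48 h, the second to 0.13 without 5-FU at 48 h, and the third to 0.04 without 5-FU at 24 h, 0.16 without 5-FU at 48 h and -0.01 without control at 48 h. AEN, which encodes an exonuclease of apoptosis, had 24.03 and 23.4 FPKM with 5-FU, against 11.5 and 8.79 FPKM in the controls, a rise of 1.16 (SE 0.27, limma adjusted p = 0.0476). FAS, a death receptor, had 4.04 and 2.85 FPKM with 5-FU, against 0.875 and 0.853 FPKM in the controls, a rise of 1.24 (SE 0.22, limma adjusted p = 0.0307). With both controls under 1 FPKM, FAS passed the filter only through treated libraries, and it is the 1 call of the death receptor list. CDKN1A, the gene of the cell cycle inhibitor p21, had 101 and 176 FPKM with 5-FU, against 41.4 and 38.9 FPKM in the controls, a rise of 1.71 (SE 0.30, limma adjusted p = 0.031). MDM2, which encodes a ubiquitin ligase, had 8.94 and 4.38 FPKM with 5-FU, against 4.32 and 3.63 FPKM in the controls, a difference of 0.56 (SE 0.22, limma adjusted p = 0.141), and BAX stood at 0.46 (SE 0.31, limma adjusted p = 0.349). In the BCL2 family, BAK1, a pore-forming killer of the mitochondrial outer membrane, rose by 1.00 (SE 0.24, limma adjusted p = 0.0499), and BAD and BID, which promote cell death, stood at 1.09 (SE 0.27, limma adjusted p = 0.0532) and 0.82 (SE 0.21, limma adjusted p = 0.0546). BAK1 had 40.7 and 66.8 FPKM with 5-FU, against 25.7 and 25.6 FPKM in the controls. TNFRSF10A, a receptor of the death ligand TRAIL, had 4.66 and 5.12 FPKM with 5-FU, against 2.75 and 1.73 FPKM in the controls, a difference of 0.88 (SE 0.24, limma adjusted p = 0.0632). CCND1, which encodes cyclin D1, was -0.55 (SE 0.22, limma adjusted p = 0.152), the opposite direction to CCND3. Other members below 0, named after their values were seen, were XIAP, an inhibitor of caspases, at -0.58 (SE 0.26, limma adjusted p = 0.18), CDKN1B, the gene of the inhibitor p27, at -0.54 (SE 0.22, limma adjusted p = 0.15), and RBL2, a relative of RB, at -1.04 (SE 0.27, limma adjusted p = 0.0602).

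Among genes of protein folding and degradation, the lists differed in how many members passed. All 22 tested cytosolic heat shock chaperones had a positive mean difference, 3 were called higher (against 2.51% of all tested genes) and 8 were at least 1.5-fold higher at both times (against 6.4%), with a median of 0.63 (0.56 at 24 h and 0.59 at 48 h). HSPB1, a small heat shock protein, had 149 and 386 FPKM with 5-FU, against 71.5 and 101 FPKM in the controls, a rise of 1.49 (SE 0.29, limma adjusted p = 0.0353). HSP90AA1, the inducible HSP90, had 278 and 354 FPKM with 5-FU, against 146 and 142 FPKM in the controls, a rise of 1.12 (SE 0.25, limma adjusted p = 0.0429), and its activator AHSA1 rose by 1.07 (SE 0.24, limma adjusted p = 0.044). All 3 were higher in both 5-FU libraries than in both controls. The inducible HSP70 genes HSPA1A and HSPA1B, named after their values were seen, stood at 0.46 (SE 0.59, limma adjusted p = 0.628) and 0.24 (SE 0.58, limma adjusted p = 0.807). Those 2 genes are near-identical copies whose reads can be split by the counting. Of 28 proteasome genes, 27 had a positive difference, 1 was called, a share near the 2.51% of all tested genes, and 10 were at least 1.5-fold higher at both times, against 6.4%. Their median was 0.64 (0.44 at 24 h and 0.83 at 48 h), and 0.40 without 5-FU at 48 h. PSMC3, an ATPase of the proteasome's cap, had 114 and 181 FPKM with 5-FU, against 48.1 and 50.9 FPKM in the controls, a rise of 1.52 (SE 0.31, limma adjusted p = 0.039). Chaperones of the endoplasmic reticulum had a lower median, 0.21 (0.19 at 24 h and 0.05 at 48 h), which was -0.07 without 5-FU at 24 h, 0.36 without 5-FU at 48 h and 0.04 without control at 48 h, and 0 of 20 were called by limma, with 3 at an unadjusted p under 0.05 and 0 by voom.

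The heat shock element was searched as GAANNTTC and TTCNNGAA on both strands; a full element repeats such units, so matches can overlap. Of 21 chaperone genes with a promoter, 15 (71.4%) held a match, against 13.1% of tested protein-coding genes and 13.5% of all start windows. The windows of the called genes with a match are shown, HSP90AA1 at chr14:102087045-102087194 (minus strand) and HSPB1 at chr7:76302451-76302600 (plus strand), with the matches in capitals. The first ends at the base before the start and the second lies further upstream.
HSP90AA1: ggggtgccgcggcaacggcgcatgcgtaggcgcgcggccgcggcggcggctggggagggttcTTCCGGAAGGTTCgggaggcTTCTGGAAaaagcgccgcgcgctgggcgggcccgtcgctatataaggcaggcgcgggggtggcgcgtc
HSPB1: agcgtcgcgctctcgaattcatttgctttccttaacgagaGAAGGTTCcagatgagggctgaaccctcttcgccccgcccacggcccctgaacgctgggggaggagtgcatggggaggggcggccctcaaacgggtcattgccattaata
HSP90AA1 held 3 matches, the first 88 bases before the start, and HSPB1 held 1, 182 bases before it. AHSA1 held none in its window.

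Of 74 tested ribosomal protein genes 55 had a negative difference, and a few were far lower than the rest. Of the 74, 52 were lower at both times, 3 were called lower (near the 3.02% of all tested genes) and 0 higher, and the median was -0.33 (-0.35 at 24 h and -0.26 at 48 h). RPL3 (GRCh38 chromosome 22, 39312882 to 39320389) had 103 and 104 FPKM with 5-FU, against 361 and 321 FPKM in the controls, and RPL10A had 123 and 129 FPKM with 5-FU, against 363 and 386 FPKM in the controls. They fell by 1.70 (SE 0.21, limma adjusted p = 0.0172) and 1.56 (SE 0.21, limma adjusted p = 0.0221). RPL4 had 193 and 175 FPKM with 5-FU, against 357 and 354 FPKM in the controls and fell by 0.95 (SE 0.22, limma adjusted p = 0.0479), and RPL34, next in rank, was -0.84 (SE 0.21, limma adjusted p = 0.0559). The first 2 fell by several times the median of the list. MYC, a driver of ribosome production, had 20.8 and 8.75 FPKM with 5-FU, against 35.3 and 39.1 FPKM in the controls and fell by 1.39 (SE 0.31, limma adjusted p = 0.0434). It was the 1 call among 27 genes of the MYC and ribosome biogenesis list, against 3.02% of all tested genes called lower. Some genes host small nucleolar RNAs (snoRNAs, guides of ribosomal RNA modification) in their introns. Of 16 non-coding or little-translated host genes, 5 were called lower and 0 higher, against 3.02% of all tested genes called lower, with a median of -0.58 (-0.64 at 24 h and -0.48 at 48 h). GAS5, which overlaps ZBTB37 on the opposite strand, had 10.7 and 11.4 FPKM with 5-FU, against 25.04 and 31.7 FPKM in the controls, a fall of 1.28 (SE 0.19, limma adjusted p = 0.0267). SNHG7 and SNHG8 fell by 1.16 (SE 0.26) and 1.03 (SE 0.20), EPB41L4A-AS1 by 1.30 (SE 0.22) and ZFAS1 by 0.99 (SE 0.23). SNHG1, named after its values were seen, was lower at 24 h and higher at 48 h, with 8.26 and 28.7 FPKM with 5-FU, against 13.1 and 9.66 FPKM in the controls.

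A count by position in the deposited table rests on the snoRNA genes listed there, and no row of one lies within GAS5, which the count therefore leaves out. By that count, 230 tested genes hold a listed snoRNA gene on their own strand, the other 15 tested genes of the host list among them. Of these 230, 12 (5.22%) were called lower and 1 (0.435%) higher, and 26 (11.3%) were at least 1.5-fold lower at both times, against 5.56% of all tested genes. Outside the ribosomal protein and host gene lists, 6 of 187 such genes (3.21%) were called lower, close to the 3.02% of all tested genes. Among ribosomal protein genes, 8 of 28 with a listed snoRNA were at least 1.5-fold lower at both times, against 3 of 46 without one. The hosts outside both lists included IARS1, an isoleucyl-tRNA synthetase gene, at -0.79 at 24 h and -1.80 at 48 h on the log2 scale, and EIF3A, a subunit of a translation initiation factor, at -0.67 at 24 h and -1.40 at 48 h. Genes of the translation machinery often start with a C followed by a run of pyrimidines, a feature that lets mTOR control their translation. This feature was looked at after the values were seen, as a C at the annotated start followed by at least 4 C or T. Such a start was present in 30 of 235 called-lower protein-coding genes with a promoter (12.8%), against 7.45% of tested protein-coding genes with a promoter. These called genes also included ones outside the translation machinery, such as ATM, FRAS1 and ZNF277, so the share is not one of translation genes. The 4 genes shown were picked by hand, and all act in translation or ribosome assembly. Their 30 base windows run from 10 bases before the start, with the run in capitals. They lie at chr19:47745536-47745565 and chr12:53006446-53006475 (plus strand), and chr6:73521013-73521042 and chr3:49104738-49104767 (minus strand).
NOP53: tggctgagttCTTCCTTTgacaagatggcg
EIF4B: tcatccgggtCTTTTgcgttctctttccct
EEF1A1: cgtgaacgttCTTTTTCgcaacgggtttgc
QARS1: gcctaagtttCTTTTagtttccggtgtctc
EEF1A1, the elongation factor that brings tRNA to the ribosome, fell by 1.05 (SE 0.22, limma adjusted p = 0.0409). EIF4B, an initiation factor, fell by 1.15 (SE 0.21, limma adjusted p = 0.0315), and QARS1, a glutaminyl-tRNA synthetase, by 1.21 (SE 0.23, limma adjusted p = 0.033). RPL3, RPL10A and RPL4 did not have such a start at the annotated base. In RPL10A and RPL4 a C followed by a run of pyrimidines lies a few bases after it, which the search did not count. Fewer than 80% of the ribosomal protein genes and of the called-higher genes matched a promoter, so no share is given for them.

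Of 37 tested genes of the mitochondrial genome, 4 (10.8%) were called higher, against 2.51% of all tested genes, and 0 lower. All 13 protein genes were higher at both times, 10 of them at least 1.5-fold, with a median of 0.85 (0.82 at 24 h and 0.91 at 48 h). MT-CO2, a subunit of cytochrome oxidase, had 6110.2 and 8846 FPKM with 5-FU, against 3437 and 3403 FPKM in the controls. With limma on log2(FPKM + 1) 0 of the 13 passed, 12 reached an unadjusted p under 0.05, 4 were called by limma voom on the recovered reads, and MT-CO2 came nearest at 1.10 (SE 0.28, limma adjusted p = 0.0554). Over all 37 genes, tRNAs and ribosomal RNAs included, 17 (45.9%) were at least 1.5-fold higher and 0 lower at both times, against 6.4% and 5.56% of all tested genes. The 36 nuclear genes of the respiratory chain had a median of 0.30 (0.11 at 24 h and 0.54 at 48 h), which was 0.55 without 5-FU at 24 h and 0.05 without 5-FU at 48 h. They had 0 calls by limma, with 7 at an unadjusted p under 0.05 and 0 by voom.

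Of 22 tested interferon-stimulated genes and STATs, 4 were called higher, against 2.51% of all tested genes, and 1 lower, against 3.02%, with a median of 0.66 (0.38 at 24 h and 0.80 at 48 h). That median was 0.42 without 5-FU at 48 h and 0.44 without control at 48 h. IFITM3, a membrane protein that blocks virus entry, had 16.5 and 31.3 FPKM with 5-FU, against 6.44 and 8.57 FPKM in the controls, a rise of 1.49 (SE 0.27, limma adjusted p = 0.031). OASL had 5.85 and 6.63 FPKM with 5-FU, against 1.57 and 0.8195 FPKM in the controls, a rise of 1.74 (SE 0.35, limma adjusted p = 0.0372), and IFIT2 had 5.57 and 5.02 FPKM with 5-FU, against 2.15 and 1.99 FPKM in the controls, a rise of 1.03 (SE 0.22, limma adjusted p = 0.041). OAS3, a sensor of double-stranded RNA, rose by 0.80 (SE 0.18). STAT2, the factor that carries the interferon signal to these genes, had 3.99 and 3.49 FPKM with 5-FU, against 9.42 and 9.33 FPKM in the controls and fell by 1.13 (SE 0.18, limma adjusted p = 0.029). So 4 target genes stood above both controls and STAT2 below both. The promoter windows of IFITM3, at chr11:320861-321010 (minus strand), and OAS3, at chr12:112938291-112938440 (plus strand), held the word GAAANNGAA of the interferon response element, in capitals.
IFITM3: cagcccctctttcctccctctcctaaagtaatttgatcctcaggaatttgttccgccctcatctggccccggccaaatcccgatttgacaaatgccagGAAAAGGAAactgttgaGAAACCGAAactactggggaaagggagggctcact
OAS3: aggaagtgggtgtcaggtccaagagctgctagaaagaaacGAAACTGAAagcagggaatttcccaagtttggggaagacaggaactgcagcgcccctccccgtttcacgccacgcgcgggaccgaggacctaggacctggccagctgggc
The word was in 8.11% of all start windows; only 15 of the 22 members matched a promoter, so no share is given for the list. In the NF-kB and chemokine list, 0 of 18 genes passed limma, 7 reached an unadjusted p under 0.05, and 1 was called by voom. RELB and NFKBIE, a subunit and an inhibitor of NF-kB, stood at 1.21 (SE 0.31, limma adjusted p = 0.0559) and 0.91 (SE 0.24, limma adjusted p = 0.0617).

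Genes of surface and gut epithelium held few calls, in both directions. Of 14 tested squamous and cornified envelope genes, 2 were called higher (against 2.51% of all tested genes), ECM1 and the elafin gene PI3, and 5 were at least 1.5-fold higher at both times. The list's median was 0.86 (0.32 at 24 h and 1.43 at 48 h), and it was 1.501 without 5-FU at 24 h and 0.23 without 5-FU at 48 h. Of 12 tested absorptive enterocyte and CEA family genes, 7 had a positive difference, and AQP3 was called higher and MGAM2 lower, against 2.51% and 3.02% of all tested genes. The list's median was 0.17 (-0.28 at 24 h and 0.30 at 48 h), with 0.10 without 5-FU at 48 h, 0.48 without control at 24 h and -0.13 without control at 48 h. PI3 had 53.5 and 186 FPKM with 5-FU, against 16.2 and 23.8 FPKM in the controls, and ECM1 had 12.3 and 37.8 FPKM with 5-FU, against 3.32 and 1.94 FPKM in the controls. AQP3, a channel for water and glycerol in surface epithelium, had 41.4 and 125 FPKM with 5-FU, against 12.7 and 15.9 FPKM in the controls, a rise of 2.26 (SE 0.47, limma adjusted p = 0.0394). For each of these both 5-FU libraries lay above both controls, and the 48 h library was the higher of the pair. MUC13, a membrane mucin of the gut, had 47.4 and 94.3 FPKM with 5-FU, against 22.2 and 20.9 FPKM in the controls, a rise of 1.59 (SE 0.31, limma adjusted p = 0.0353). CLDN1, a claudin of tight junctions, had 7.41 and 3.73 FPKM with 5-FU, against 14.1 and 13.2 FPKM in the controls and fell by 1.21 (SE 0.22, limma adjusted p = 0.0314). MGAM2, a relative of the brush border enzyme maltase-glucoamylase, had 0.843 and 0.301 FPKM with 5-FU, against 4.45 and 5.29 FPKM in the controls and fell by 1.92 (SE 0.23, limma adjusted p = 0.0172). VIL1, the villin of microvilli, had 18.4 and 8.91 FPKM with 5-FU, against 28.5 and 26.4 FPKM in the controls, a difference of -1.04 (SE 0.26, limma adjusted p = 0.0546). SOX9, a transcription factor of crypt cells and a Wnt target, had 39.1 and 15.002 FPKM with 5-FU, against 56.01 and 60.5 FPKM in the controls, a difference of -1.23 (SE 0.33, limma adjusted p = 0.0621). EPHB3, also a Wnt target, moved the other way, with 19.3 and 28.02 FPKM with 5-FU, against 9.31 and 8.503 FPKM in the controls and a rise of 1.29 (SE 0.28, limma adjusted p = 0.0431). The Wnt list of 14 genes had 1 call in each direction, against 2.51% of all tested genes called higher and 3.02% called lower. Its median was -0.41 (-0.23 at 24 h and -0.40 at 48 h), and it was -0.22 without 5-FU at 48 h. TGFB1, which encodes the growth factor TGF-beta 1, had 89.4 and 155 FPKM with 5-FU, against 40.8 and 49.4 FPKM in the controls, a rise of 1.37 (SE 0.28, limma adjusted p = 0.039). It was the 1 call among 8 tested mesenchymal transition genes, against 2.51% of all tested genes called higher.

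Stress and metabolic genes held calls in both directions. SLC7A11, the cystine transporter that feeds glutathione synthesis and a target of ATF4 and NRF2, had 13.2 and 1.62 FPKM with 5-FU, against 26.1 and 18.1 FPKM in the controls and fell by 1.90 (SE 0.44, limma adjusted p = 0.0484). The ATF4 list of 21 tested genes had 1 call, lower, against 3.02% of all tested genes, with ATF4 itself at -0.70 (SE 0.21, limma adjusted p = 0.0783). Its median was -0.15 (-0.16 at 24 h and -0.49 at 48 h), and it was -0.24 without 5-FU at 24 h, -0.43 without control at 24 h and -0.03 without control at 48 h. JUND, an AP-1 subunit, fell by 1.08 (SE 0.25, limma adjusted p = 0.0473). ADM, the vasodilator adrenomedullin and a gene of the hypoxia response, had 7.98 and 21.01 FPKM with 5-FU, against 3.61 and 5.56 FPKM in the controls, a rise of 1.35 (SE 0.28, limma adjusted p = 0.039), while VEGFA, from the same response, stood at -1.02 (SE 0.26, limma adjusted p = 0.0552). PFKL, the liver-type phosphofructokinase, had 11.4 and 9.33 FPKM with 5-FU, against 18.7 and 23.6 FPKM in the controls and fell by 0.96 (SE 0.22, limma adjusted p = 0.0471). Among 26 tested glycolysis and hypoxia genes, 1 was called higher (against 2.51% of all tested genes) and 1 lower (against 3.02%). Of the 26, 20 had a positive and 6 a negative difference, with a median of 0.38 (0.36 at 24 h and 0.27 at 48 h). Of 27 tested cholesterol and fatty acid synthesis genes, 2 were called higher, against 2.51% of all tested genes, and 0 lower. These were EBP and IDI1, which rose by 1.11 (SE 0.23) and 1.08 (SE 0.26). The list's median was 0.24 (0.03 at 24 h and 0.44 at 48 h). It was 0.17 without 5-FU at 48 h, 0.46 without control at 24 h and -0.01 without control at 48 h. GLA, a lysosomal galactosidase, had 31.004 and 53.1 FPKM with 5-FU, against 16.6 and 15.96 FPKM in the controls, a rise of 1.27 (SE 0.24, limma adjusted p = 0.0341). HBEGF, an EGF receptor ligand, had 6.03 and 19.2 FPKM with 5-FU, against 2.85 and 2.22 FPKM in the controls, a difference of 1.76 (SE 0.44, limma adjusted p = 0.0548), and its receptor's partner ERBB3 had 18.4 and 8.46 FPKM with 5-FU, against 27.1 and 28.5 FPKM in the controls, a difference of -1.09 (SE 0.28, limma adjusted p = 0.0576). By limma 0 members were called in the lists of HLA class I (15 tested), MAPK feedback (13), the EGF receptor family (9), fatty acid oxidation (10), keratins (12) and metallothioneins (8). In that order an unadjusted p under 0.05 was reached by 3, 5, 5, 1, 4 and 1 of them, and calls by voom numbered 0, 2, 2, 0, 1 and 0.

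**Figure D4:**
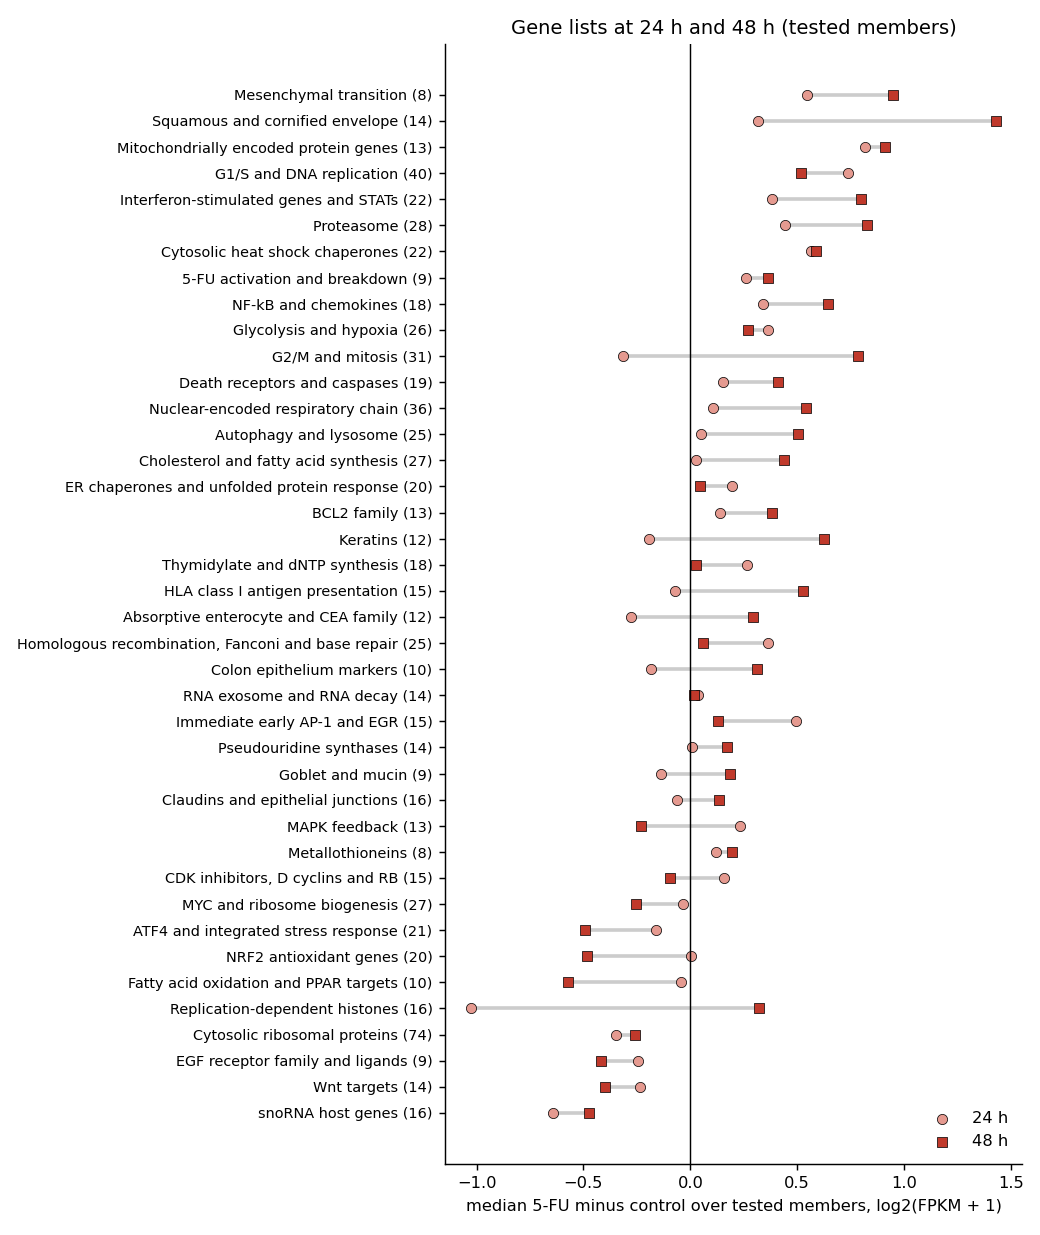
Points give the median 5-FU minus control difference in log2(FPKM + 1) over the tested members of each gene list shown, all with at least 8, at 24 h (circles) and 48 h (squares), with the number tested in parentheses. Squamous genes, mitochondrial protein genes, replication genes and the proteasome lie right of 0 at both times, and snoRNA hosts and ribosomal proteins left of it.

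Long non-coding RNAs held more lower than higher calls. Of 1081 tested long non-coding genes, 76 (7.03%) were called lower and 27 (2.50%) higher, against 292 (2.63%) lower and 260 (2.34%) higher of 11116 protein-coding genes. Their median was -0.25 at 24 h and -0.11 at 48 h, so the median was no lower at 48 h. LINC01003 (GRCh38 chromosome 7, 152463786 to 152465549) had 0.485 and 0.544 FPKM with 5-FU, against 5.41 and 6.36 FPKM in the controls. It fell by 2.18 (SE 0.18, limma adjusted p = 0.0133), and the smallest adjusted p of the 15 lowest protein-coding genes was the same. PAXIP1-AS1 had 0.815 and 1.41 FPKM with 5-FU, against 6.698 and 8.498 FPKM in the controls, and AC006026.3 had 1.196 and 0.838 FPKM with 5-FU, against 12.2 and 8.25 FPKM in the controls. They fell by 2.03 (SE 0.20) and 2.46 (SE 0.25), with both 5-FU libraries far below both controls. AL139289.1 and AL354892.2 completed the 5 lowest, the first with 0.582 and 0.363 FPKM with 5-FU, against 6.76 and 4.76 FPKM in the controls. AL354892.2 had 0.5304 and 0.892 FPKM with 5-FU, against 3.89 and 5.202 FPKM in the controls. In the other direction, AL365203.2 had 5.61 and 13.1 FPKM with 5-FU, against 0.873 and 0.722 FPKM in the controls, a rise of 2.43 (SE 0.32, limma adjusted p = 0.0184). With both controls under 1 FPKM, AL365203.2 passed the filter only through treated libraries. AC011676.1 had 4.85 and 16.5 FPKM with 5-FU, against 1.16 and 0.22000 FPKM in the controls and lies within SLC45A4 on its strand. AC017074.1, AC006538.1 and AC025176.1 were the other 3 highest, with rises of 2.29 (SE 0.32), 1.83 (SE 0.34) and 1.61 (SE 0.24). Roles of these RNAs are not given here.

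The difference between 5-FU and control varied with gene length: medians were above 0 among short genes and below 0 among long ones. Protein-coding genes were split into 5 equal groups by annotated length, with medians of 2083, 3592, 5080, 6903 and 10508 bases. From the shortest to the longest group the median difference at 48 h was 0.36, 0.14, 0.04, -0.15 and -0.31, and at 24 h it was 0.14, 0.10, 0.07, 0.01 and -0.05. Genes called higher numbered 101, 81, 40, 30 and 8 in the same order, and genes called lower 52, 44, 48, 63 and 85. Across 11116 genes, which are not independent replicates, Spearman's rank correlation of length with the difference was -0.17 at 24 h and -0.32 at 48 h, and that of GC content 0.09 and 0.25. The 5-FU 48 h library also had the highest GC content of the 4, 53.2%, against 52.1% for 5-FU at 24 h and 51.9% and 52.3% for the controls. When the deviation of each library with length and GC content was removed, 350 genes were called higher and 486 lower, and 276 and 351 of them were among the calls above. With that correction the medians were 0.58 for the replication genes, 0.54 for the chaperones, 0.51 for the proteasome, -0.39 for the ribosomal proteins and 0.87 for the mitochondrial protein genes. This correction was chosen after the relation was seen, and the part of length and GC content in single genes was not tested.

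**Figure D5:**
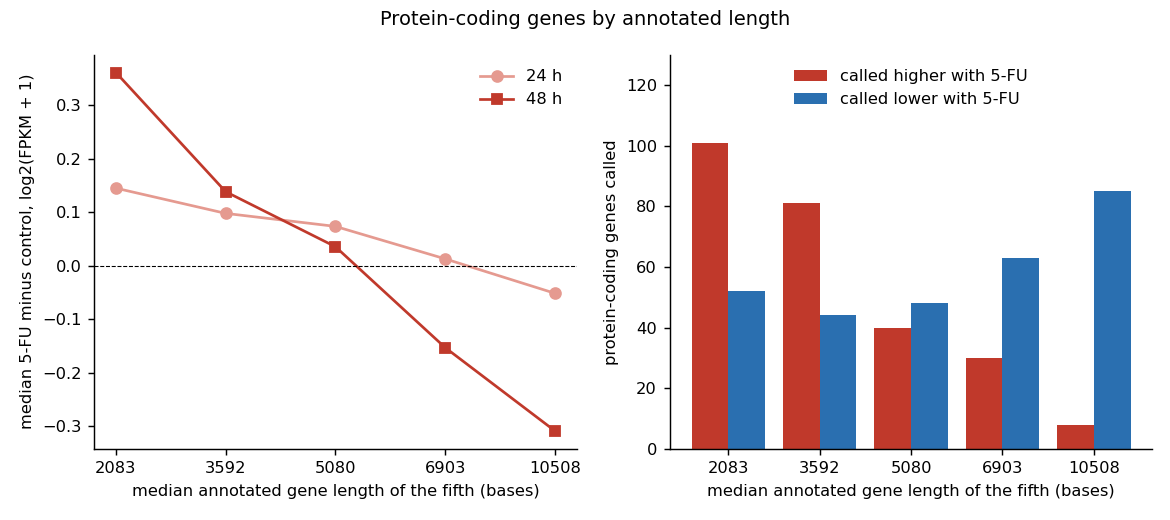
Protein-coding genes in 5 groups of rising annotated length (x axis, median bases). Left, the median 5-FU minus control difference in log2(FPKM + 1) falls across the groups, more at 48 h (0.36 to -0.31) than at 24 h; right, counts of genes called higher fall (101 to 8) and counts called lower rise (52 to 85).

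Set against the other treated libraries instead of the controls, 5-FU differed in more genes. 5-FU minus the mean of both extracts gave 1612 genes called higher (12.0% of those tested) and 1522 called lower (11.4%), with n = 2 libraries of 5-FU and 4 of the extracts. Both comparisons share the 5-FU libraries. Of the replication genes, 33 of 40 were called higher against the extracts and 0 lower, with a median of 1.25, where that of all tested genes was 0.03. TYMS differed from the extracts by 2.15 (SE 0.25, limma adjusted p = 0.00397) and PCNA by 1.77 (SE 0.25, limma adjusted p = 0.0058); the 76 3P extract 48 h library held 1.97 FPKM of TYMS and 39.4 FPKM of PCNA, below both controls. Of 31 G2/M genes, 14 were called higher, and of 28 proteasome genes 10. Against the controls 0 of the 31 and 1 of the 28 were called higher. The replication list summed to 748 and 882 FPKM in the controls, 684 and 780 with 74 3NP, and 350 and 279 with 76 3P. The G2/M list summed to 1203 and 1019 FPKM in the controls, 870 and 968 with 74 3NP, and 749 and 433 with 76 3P. A call against the extracts is therefore not by itself a rise over the controls. Of 74 ribosomal protein genes 18 were called lower, and of 16 snoRNA hosts 7. Of the 15 highest and 15 lowest protein-coding genes named above, 13 and 15 passed this test in the same direction, and the exceptions were APLP1 and PI3, the second at 0.45 (SE 0.40, limma adjusted p = 0.428). In the NF-kB and chemokine list 9 of 18 genes were called lower and 0 higher, among them CXCL1, a chemokine that attracts neutrophils. The list summed to 402 and 633 FPKM with 5-FU, 319 and 374 in the controls, 1413 and 1339 with 74 3NP, and 712 and 1920 with 76 3P. Of the 18, 4 were under 1 FPKM in both controls and had to pass the filter through treated libraries. Members that passed through the extract libraries are set against those same libraries, which makes a lower call likely. CXCL1 had 0.847 and 0.44001 FPKM with 5-FU, against 11.6 and 12.2 FPKM with the 74 3NP extract and 4.99 and 5.86 FPKM with the 76 3P extract at 24 h and 48 h. With both 5-FU libraries under 1 FPKM, CXCL1 passed the filter through other libraries. DDIT4, an inhibitor of mTOR signalling, was likewise lower, with 22.3 and 13.5 FPKM with 5-FU, against 74.7 and 72.4 FPKM with the 74 3NP extract and 131 and 229 FPKM with the 76 3P extract, a difference of -2.63 (SE 0.31, limma adjusted p = 0.00397).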

How the data were processed

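Total RNA of HT-29 cells was sequenced on Illumina instruments. Per the submitters' processing notes, reads were mapped with HISAT2 2.0.5, and GRCh38 and hg38 are named; no label or header names the counting tool, annotation or use of strand. Per the file headers, the authors deposited FPKM per gene for each library. In each library, 100% of FPKM values times gene length were whole multiples of 1 step within 0.01 reads, and the steps imply scaling by median-ratio size factors in place of library totals, so values are relative to the typical gene. Reads on genes ranged from 18141663 to 28048517 over the 8 libraries. The deposited table of the libraries gives the percent GC of the reads and the number of filtered reads.

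Genes with at least 1 FPKM in at least 2 of the 8 libraries were kept. limma 3.58.1 in R 4.3.3 (lmFit, then eBayes with a variance trend) was fitted to log2(FPKM + 1), which understates changes of low genes, with terms for treatment and for time, leaving 3 residual degrees of freedom (median prior 5.39). P-values are two-sided with Benjamini-Hochberg adjustment over 13388 genes and a threshold of 0.05. The time term pairs each 5-FU library with the control of its time, as the study's labels give it. Differences at a single time compare 1 library with 1 library and have no test. Promoters and starts came from RefSeq tables of GRCh38.p14, and GC content from GENCODE transcripts.

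Named genes are the 15 highest and 15 lowest protein-coding and the 5 highest and 5 lowest long non-coding genes past the test, with a mean of at least 2 FPKM and a change of at least 1.5-fold the same way at both times. Where both 5-FU libraries of a called gene lie on one side of both controls, its selection makes this likely, so it is no separate support. A gene among the 15 lowest and 1 gene list are not reported here. Per gene list, up to 4 members with the smallest p were added, with 16 fixed genes. Further called members and genes shown for a sequence were chosen after their values were seen. The members and lists were chosen with earlier results of these data known. Alternatives were other pseudocounts, filters, scalings and fits, a voom fit of the recovered reads, and each library left out.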

Additional observations from a re-analysis of the deposited data

Results flagged for a closer look

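For MUC20 the difference between 5-FU and control was at least 1.5-fold in opposite directions at 24 h and 48 h. In 4 gene lists at least 2 in 3 members lay below 0 at 24 h. At 48 h at least 2 in 3 lay above 0 in these lists, though not always the same members. Each of these rests on 1 library against 1 library per time, and the difference between the times was not tested. MUC20, a membrane mucin, differed by -0.70 at 24 h and by 1.53 at 48 h in log2(FPKM + 1). Of 31 G2/M genes tested, 9 were higher with 5-FU at 24 h and 25 at 48 h, with medians of -0.32 and 0.78. Of 12 keratin genes, 4 were higher at 24 h and 9 at 48 h, with medians of -0.19 and 0.63. Of 9 goblet cell and mucin genes, 3 were higher at 24 h and 6 at 48 h, with medians of -0.14 and 0.19. Of 10 colon epithelium markers, 3 were higher at 24 h and 8 at 48 h, with medians of -0.19 and 0.31. The medians of 7 further lists with at least 8 tested members also had opposite signs at 24 h and 48 h, with a less one-sided count of members at one or both times: -1.02 and 0.32 for the histones, -0.28 and 0.30 for absorptive enterocyte genes, -0.07 and 0.53 for HLA class I, -0.06 and 0.13 for claudins and junctions, 0.16 and -0.10 for the CDK inhibitor list, 0.0008 and -0.48 for NRF2 targets, and 0.23 and -0.23 for MAPK feedback. Among the named genes, CCNB1 (-0.31 and 0.79), UPP1 (-0.07 and 1.87) and SLC30A1 (0.09 and -1.32) changed sign too, each by less than 1.5-fold at 24 h.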

How the results depend on the processing

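Every gene called higher or lower kept its sign under every alternative that tested it, but the number of calls did not keep to 1 size. The called genes already had the same sign at both times, so the kept signs are no separate support. Without a filter on low values, 0 genes were called higher and 0 lower by limma, and 0 against the extracts, over 33187 genes, with 4768 and 6892 genes at an unadjusted p under 0.05. A pseudocount of 5 gave 242 lower calls. With only the 4 libraries of 5-FU and control, 675 genes were called higher. With no replicate block, that is without the pairing by time, 175 were called higher and 219 lower. limma voom on the recovered reads gave 534 higher and 616 lower calls. Leaving out 1 library at a time gave between 0 and 1364 higher calls, between 0 and 1225 lower calls, and between 28 (without the 5-FU 48 h library) and 4070 calls against the extracts. Where a library of 5-FU or control was left out, the lone library was assumed to vary like the other groups. Genes changed 1.5-fold the same way at both times numbered 2498 with a pseudocount of 0.1 and 526 with a pseudocount of 5, and 310 changed 2-fold, which the size of the fold sets. The cause of the other changes was not tested. The other scalings, the stricter filter and the fit without a variance trend kept these counts within 1.5 times, as did a correction for length and GC content that was chosen after seeing the data. Of 81 named genes called, 77 kept the call with a pseudocount of 0.1, 67 with a pseudocount of 5, and 0 without the 5-FU 48 h, control 24 h or control 48 h library, where their adjusted p-values ranged from 0.0859 to 0.467. Of 41 list medians, 10 changed sign without the 5-FU 48 h library and 4 under scaling to total reads, among them the exosome and the pseudouridine synthase lists. With 1 library per treatment and time, the number of libraries limits the precision.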
